A study of Saccharomyces cerevisiae with 12 samples.

Results

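Messenger RNA was compared between budding yeast with extra copies of DBP1 behind the DED1 control regions (2xDbp1) and yeast with DED1 itself behind them (Ded1). The comparison used 4 of the series' 12 libraries, 2 for each genotype, picked by the genotype and RNA type in each title. The 2xDbp1 cells carried 4 copies of DBP1, per the labels, and a further genotype, Dbp1, carried DBP1 behind the same regions with no copy number given. The 2 Dbp1 mRNA libraries entered the fit to estimate the spread, and their values are given beside the others. All cultures were of the SK1 strain, grown in YEPD at 30 °C with aeration to an optical density of 0.6 and treated with 100 µM cycloheximide for 1 minute before harvest. The purpose given for the extra copies was to match helicase levels, in order to examine helicase specificity. Whether the 2 libraries of a genotype came from separate cultures or clones is not given in the sources used here, so p-values measure only the spread between these samples. Values are RPKM, reads per kilobase of gene scaled to library depth.

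Ded1 and Dbp1 are paralogous DEAD-box RNA helicases. They unwind RNA with the energy of ATP, and Ded1 is known for its part in ribosome scanning through structured leaders during translation initiation. Ded1 is essential in mitotic growth, while Dbp1 is scarce in rich medium and can stand in for Ded1 when it is expressed in excess. Poly(A) mRNA levels reflect synthesis and decay and do not report translation.

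The DED1 and DBP1 transcripts followed the genotype labels in every library. DBP1 had 156 and 153 RPKM in 2xDbp1, 100.4 and 105 RPKM in Dbp1 and 5.12 and 4.26 RPKM in Ded1. DED1 had 1.81 and 1.87 RPKM in 2xDbp1, 2.74 and 2.81 RPKM in Dbp1 and 63 and 61.5 RPKM in Ded1. The libraries of 2xDbp1 and Ded1 did not overlap for either gene, and DBP1 was higher in 2xDbp1 than in both Dbp1 libraries. DBP1 averaged 154.4 ± 1.68 RPKM in 2xDbp1 and 4.69 ± 0.604 RPKM in Ded1 (SD, n = 2 each), a fold of 32.9 between the means (limma, log2 fold change +4.78 on log2(RPKM + 1), SE 0.10, adjusted p = 1.72e-06). DED1 averaged 1.84 ± 0.0373 RPKM in 2xDbp1 and 62.2 ± 1.1 RPKM in Ded1, where it was 33.8 times as high (limma, log2 fold change -4.48, SE 0.16, adjusted p = 2.17e-05). The DED1 values in 2xDbp1 correspond to about 21 and 23 reads, and the DBP1 values in Ded1 to 70 and 65. Paralogs can share reads, so these lowest values are uncertain. Since the construction itself sets these levels, they serve as a check of the labels. DED1 also reached the minimum mean of 5 RPKM for testing only through the Ded1 libraries. The p-values of DED1 and DBP1 are thus given as part of that check and not as a finding.

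Genes beside DED1 and DBP1 on their chromosomes did not pass the threshold (limma, Benjamini-Hochberg adjusted p under 0.05). HIS3, a histidine synthesis gene next to DED1 on chromosome XV, had 197 and 183 RPKM in 2xDbp1, against 181 and 177 RPKM in Ded1 (limma, log2 fold change +0.08, SE 0.11, adjusted p = 0.716). On the other side of DED1, GEP3 had 54.6 and 51.6 RPKM in 2xDbp1, against 62.6 and 61.9 RPKM in Ded1, and NOC2, which acts in export of ribosomal precursors from the nucleolus, had 185 and 182 RPKM in 2xDbp1, against 208 and 199.7 RPKM in Ded1. Their log2 fold changes were -0.23 and -0.15. RET1, an RNA polymerase III subunit gene, stood farther out at -0.29 (limma, adjusted p = 0.286). Next to DBP1 on chromosome XVI, VPS30, an autophagy and vacuolar sorting gene, had 41.1 and 45.1 RPKM in 2xDbp1, against 36.9 and 36.2 RPKM in Ded1. MRP51, a mitochondrial ribosomal protein gene on its other side, had 273 and 252 RPKM in 2xDbp1, against 239 and 216 RPKM in Ded1. Both lay higher in 2xDbp1 with no overlap, at +0.23 and +0.21 (limma, adjusted p = 0.334 and 0.413).

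TRP1, which encodes phosphoribosylanthranilate isomerase of tryptophan synthesis and serves as a selectable marker in yeast strains, fell in 2xDbp1. It had 5.7 and 6.52 RPKM in 2xDbp1, 79.7 and 71.5 RPKM in Dbp1 and 70.4 and 83.4 RPKM in Ded1. Both 2xDbp1 libraries lay far below the other 4, while the Dbp1 and Ded1 values overlapped. The mean was 6.11 ± 0.58 RPKM in 2xDbp1 and 76.9 ± 9.22 RPKM in Ded1 (SD, n = 2 each; limma, log2 fold change -3.45, SE 0.13, adjusted p = 2.17e-05). In reads, the 2xDbp1 values correspond to 23 and 28 and the Ded1 values to 330 and 436. The open reading frame YDR008C, whose systematic name places it by TRP1 (YDR007W) and on the other strand, had values in the opposite direction. It had no match in the R64 gene table used here, so whether it overlaps TRP1 could not be read. It had 15.7 and 16.7 RPKM in 2xDbp1, 2.29 and 0.438 RPKM in Dbp1 and 0.809 RPKM in the second Ded1 library, and it was listed at 0 in the first. No 2xDbp1 library overlapped a library of another genotype. Its mean over the 6 libraries passed the minimum of 5 RPKM only through the 2xDbp1 libraries, so its values are given as a description with no test. Whether reads were counted by strand is not stated in the sources used here, so reads of TRP1 and YDR008C cannot be told apart with certainty.

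The other genes around TRP1 on chromosome IV did not pass. SOK1, on the other side from YDR008C, had 31 and 28.1 RPKM in 2xDbp1, against 37.8 and 30.6 RPKM in Ded1. GAL3, the galactose sensor gene next to YDR008C, had 7.51 and 5.43 RPKM in 2xDbp1, against 3.93 and 6.03 RPKM in Ded1. Their log2 fold changes were -0.20 and +0.33 (limma, adjusted p = 0.489 and 0.605), and the libraries overlapped for both. SNQ2, a multidrug transporter gene 3 genes away, had 36.3 and 33.7 RPKM in 2xDbp1, against 48.2 and 42.7 RPKM in Ded1 (-0.37, adjusted p = 0.249).

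The remaining genes of tryptophan synthesis and uptake did not pass. TRP5, tryptophan synthase, had 111 and 129.6 RPKM in 2xDbp1, against 147 and 167 RPKM in Ded1 (limma, log2 fold change -0.38, SE 0.11, adjusted p = 0.27). TAT1, an amino acid permease that carries tryptophan and tyrosine, had 97.3 and 94.5 RPKM in 2xDbp1, against 73.8 and 56 RPKM in Ded1 (+0.57, adjusted p = 0.339), and TAT2, the high-affinity tryptophan permease, had 88.1 and 90.04 RPKM in 2xDbp1, against 79.4 and 75.7 RPKM in Ded1 (+0.20, adjusted p = 0.444). Both permease genes were higher in 2xDbp1 with no overlap, and TRP5 was lower with no overlap. Of the 12 members tested, 2 were higher and 4 lower with no overlap (16.7% and 33.3%, against 30.9% and 21.4% over all genes). TRP1 was the 1 that passed.

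**Figure D1:**
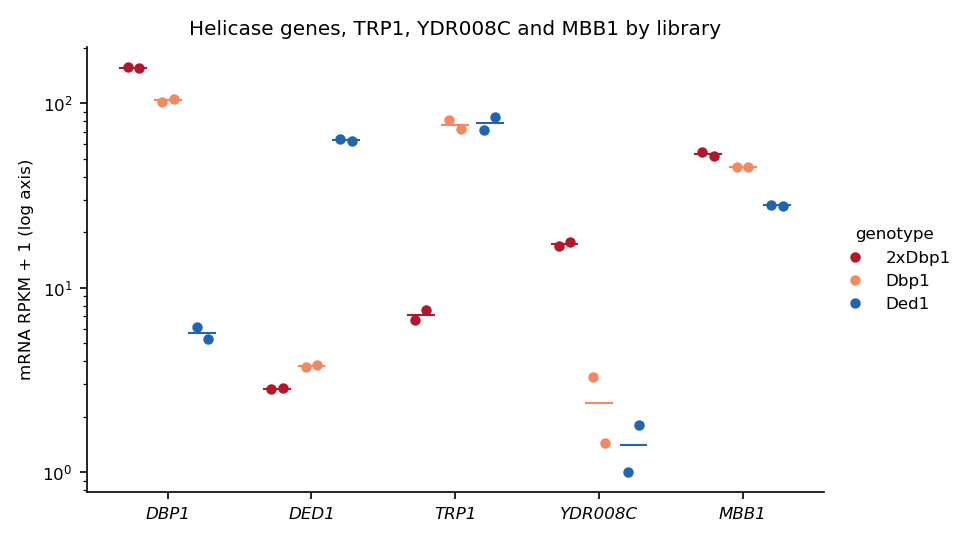
Each point is 1 mRNA library (RPKM + 1, log axis) and each bar the mean of the 2 libraries of a genotype, for DBP1, DED1, TRP1, YDR008C and MBB1. TRP1 is low and YDR008C high in the 2xDbp1 libraries alone, while MBB1 is higher in 2xDbp1 and Dbp1 than in Ded1.

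Strain markers other than TRP1 did not pass. LEU2, a leucine synthesis gene, had 35.4 and 46 RPKM in 2xDbp1, 63.2 and 69.9 RPKM in Dbp1 and 49.7 and 70.3 RPKM in Ded1 (limma, log2 fold change -0.54, SE 0.19, adjusted p = 0.289). URA3, a uracil synthesis gene, had 63.7 and 60.01 RPKM in 2xDbp1, 38.9 and 55.6 RPKM in Dbp1 and 49.7 and 55.5 RPKM in Ded1 (+0.23, adjusted p = 0.52). ADE2 stood at -0.24, and the libraries of HIS4 and ARG4 overlapped (-0.23 and +0.01). LYS2 was under the minimum of 5 RPKM, with 2.33 and 3.41 RPKM in 2xDbp1, against 3.06 and 4.83 RPKM in Ded1. LEU2 and ADE2 were lower and URA3 and HIS3 higher in both 2xDbp1 libraries than in both Ded1 libraries. With TRP1 counted, 2 of 7 markers tested were higher and 3 lower with no overlap (28.6% and 42.9%, against 30.9% and 21.4% over all genes).

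MBB1, a short gene of unknown function, rose in 2xDbp1. It had 53.7 and 51 RPKM in 2xDbp1, 44.3 and 43.9 RPKM in Dbp1 and 27 and 26.9 RPKM in Ded1, with no overlap between genotypes (limma, 2xDbp1 against Ded1, log2 fold change +0.93, SE 0.0898, adjusted p = 0.0167). The Dbp1 libraries lay between the others. These values correspond to 94 and 95 reads in 2xDbp1, 71 and 92 in Dbp1 and 55 and 61 in Ded1. No library held more than 95. MBB1 missed the threshold (limma) when a compared library was left out, at an adjusted p of 0.258 without 2xDbp1 replicate 1 and 0.175 with replicate 2 of 2xDbp1 left out. It was 0.144 without Ded1 replicate 1 and 0.178 without Ded1 replicate 2. PHO90, a phosphate transporter gene beside it on chromosome X, had 52.8 and 51.3 RPKM in 2xDbp1, against 61.6 and 60.2 RPKM in Ded1 and did not pass (-0.22, adjusted p = 0.309).

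These 4 genes, of which DBP1 and DED1 are set by the construction, were 0.077% of the 5198 genes tested (limma, Benjamini-Hochberg adjusted p under 0.05). DBP1 and MBB1 were higher (0.0385%) and DED1 and TRP1 lower (0.0385%). With the libraries rescaled there were 8, 5 higher and 3 lower. At an unadjusted p under 0.05 there were 785 genes, 15.1%. Of these, 532 were higher (10.2%) and 253 lower (4.87%). Libraries of 2xDbp1 and Ded1 did not overlap for 1605 genes that were higher (30.9%) and 1110 that were lower (21.4%). The median log2 fold change over all genes was +0.03, and its median size without regard to sign was 0.139. Between replicates, the median absolute log2 difference was 0.113 in 2xDbp1, 0.136 in Dbp1 and 0.124 in Ded1. Between a 2xDbp1 and a Ded1 library it was 0.143 to 0.183. A change of at least 2-fold with no overlap was found for 22 genes higher (0.423%) and 8 lower (0.154%).

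**Figure D2:**
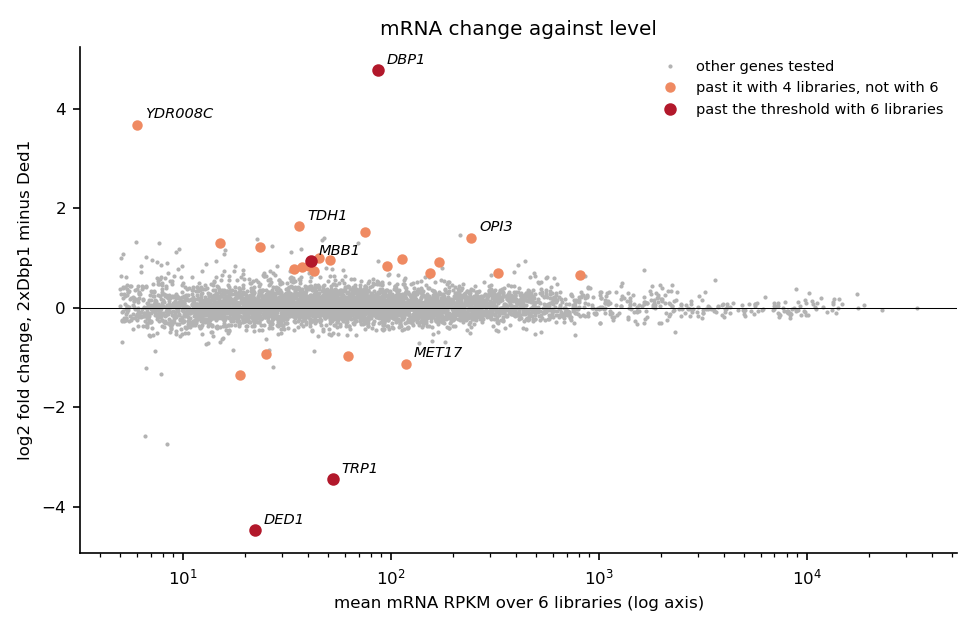
Each point is 1 of 5198 genes, placed by its mean mRNA RPKM over 6 libraries (log axis) and its log2 fold change, 2xDbp1 minus Ded1. Red points are the 4 genes past the threshold. They are labelled, as are YDR008C, which has no test in the text, MET17, OPI3 and TDH1. Orange points are genes past the threshold with the 4 compared libraries but not with 6, YDR008C among them, and the grey cloud is centred near 0.

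The number of genes called depended on the Dbp1 libraries, which are not compared but share in the estimate of the spread. Fitted with the 4 libraries of 2xDbp1 and Ded1 alone, 26 of 5186 genes passed, 20 higher (0.386%) and 6 lower (0.116%), all 4 genes above among them. They include YDR008C, which entered the genes tested only through its 2xDbp1 values. Without Dbp1 replicate 1 or Dbp1 replicate 2 the count was 27. OPI3, the methyltransferase that completes phosphatidylcholine synthesis, had 286 and 338 RPKM in 2xDbp1, 393 and 203 RPKM in Dbp1 and 121 and 112 RPKM in Ded1. The 2xDbp1 and Ded1 libraries were far apart, and the Dbp1 libraries also stood apart from each other. Its log2 fold change of +1.41 had an SE of 0.27 with 6 libraries (limma, adjusted p = 0.178) and of 0.111 with 4 (adjusted p = 0.0092).

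In the 4 libraries alone 0.501% of all genes passed, against 2 of 39 on the respiratory list and 2 of 37 on the general stress list. On the glycolysis list 1 of 21 passed, and on the methionine and homocysteine list 3 of 19. The trehalose and glycogen and tricarboxylic acid cycle lists, with 18 genes each, held 0. List sizes are those tested with 6 libraries, and the lists were chosen with earlier results of these data known. SDH2, the iron-sulfur subunit of succinate dehydrogenase, had 348 and 355 RPKM in 2xDbp1, against 208 and 228 RPKM in Ded1 (+0.69, adjusted p = 0.253 with 6 libraries and 0.0356 with 4). SDH4, a membrane anchor subunit of the same enzyme, had 166 and 169 RPKM in 2xDbp1, against 103 and 103 RPKM in Ded1 (+0.70). COX17, the copper chaperone of cytochrome c oxidase, had 999.5 and 929 RPKM in 2xDbp1, against 609.5 and 605 RPKM in Ded1 (+0.67). For all 3 genes the Ded1 libraries lay below both 2xDbp1 libraries. STF1, which modulates the inhibition of ATP synthase, had 174 and 178 RPKM in 2xDbp1, against 92 and 93.7 RPKM in Ded1 (+0.91, adjusted p = 0.0749 with 6 libraries and 0.0181 with 4).

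TDH1, a glyceraldehyde-3-phosphate dehydrogenase isozyme, had 43.2 and 46.2 RPKM in 2xDbp1, 65.5 and 33.8 RPKM in Dbp1 and 16.6 and 11.3 RPKM in Ded1 (+1.64, adjusted p = 0.178 with 6 libraries and 0.025 with 4). GPM2, related to phosphoglycerate mutase, had 48.6 and 55.6 RPKM in 2xDbp1, against 28.3 and 23.2 RPKM in Ded1 (+0.99). YRO2, a membrane protein gene, had 59.4 and 78.2 RPKM in 2xDbp1, 198 and 66.4 RPKM in Dbp1 and 24.3 and 22.2 RPKM in Ded1 (+1.51). TDH1 and YRO2 were higher in both 2xDbp1 libraries than in Ded1, and in each gene Dbp1 replicate 1 was the highest library of all. YET2, which encodes an endoplasmic reticulum membrane protein, stood at +0.96, PDH1 at +0.97, FMP33 at +1.31 and PRM3, a karyogamy gene, at +0.77. RTC3 (+1.21), MIN6 (+0.83), SCS22, a homolog of the membrane contact protein gene SCS2 (+0.84), YOR292C (+0.74) and RRT8 (+0.82) had adjusted p-values of 0.051 to 0.0513 with all 6 libraries (limma), just over the threshold, and passed in 4. YBL071C-B (-1.36), MET2, MET6 and MET17 were the genes lower in 4 libraries besides DED1 and TRP1. YBL071C-B rests on 2 and 3 reads in 2xDbp1, 1 and 12 in Dbp1 and 8 and 8 in Ded1, and a Dbp1 library was its highest.

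Sulfur amino acid genes lay lower in 2xDbp1 as a group, although none passed the threshold in the main fit. Yeast reduces sulfate to sulfide, joins it to a homoserine ester to make homocysteine and methylates that to methionine, under the activator Met4 and its DNA-binding partners. Of 8 sulfate assimilation genes tested, 6 were lower with no overlap (75%, against 21.4% over all genes) and 0 higher (0%, against 30.9%). The median was -0.42, against +0.03 over all genes. By limma 0 passed the threshold, and 5 were lower at an unadjusted p under 0.05 (62.5%, against 4.87% over all genes). MET5, a sulfite reductase subunit gene, had 9.83 and 10.8 RPKM in 2xDbp1, 10.5 and 11 RPKM in Dbp1 and 16 and 19.7 RPKM in Ded1 (limma, log2 fold change -0.73, SE 0.15, adjusted p = 0.178). MET10, for the other subunit, had 10.8 and 12.3 RPKM in 2xDbp1, 12.5 and 16.2 RPKM in Dbp1 and 18.1 and 20.3 RPKM in Ded1 (-0.69). The Ded1 libraries were highest for both subunits, with no overlap. MET16, which encodes the reductase acting on activated sulfate, had 29.2 and 32.2 RPKM in 2xDbp1, 36.7 and 40.9 RPKM in Dbp1 and 45.4 and 71.3 RPKM in Ded1 (-0.87), and MET14, the kinase before it, had 90.3 and 82.7 RPKM in 2xDbp1, 73.2 and 78.5 RPKM in Dbp1 and 115 and 119 RPKM in Ded1 (-0.43). MET3, the first enzyme of the pathway, had 25.7 and 25.9 RPKM in 2xDbp1, against 27.6 and 26.3 RPKM in Ded1 (-0.06), a small gap with no overlap, and the libraries of MET22 overlapped (-0.15). The sulfate permease genes SUL1 and SUL2 were under 5 RPKM.

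In methionine and homocysteine synthesis, 12 of 19 genes were lower and 0 higher with no overlap (63.2% and 0%, against 21.4% and 30.9% over all genes). The median was -0.19, and 0 passed the threshold by limma. At an unadjusted p under 0.05, 8 were lower (42.1%, against 4.87% over all genes). MET2, homoserine acetyltransferase, had 21.9 and 18.1 RPKM in 2xDbp1, 16.8 and 16.4 RPKM in Dbp1 and 39.3 and 38.7 RPKM in Ded1 (limma, log2 fold change -0.94, SE 0.12, adjusted p = 0.051). MET17, which joins sulfide to that ester, had 79.9 and 86.4 RPKM in 2xDbp1, 76.6 and 94.7 RPKM in Dbp1 and 157 and 212 RPKM in Ded1 (limma, log2 fold change -1.13, SE 0.16, adjusted p = 0.0772). MET6, methionine synthase, had 41.7 and 46.7 RPKM in 2xDbp1, 44.4 and 64 RPKM in Dbp1 and 79.3 and 98 RPKM in Ded1 (-0.98, adjusted p = 0.178). In all 3 the Ded1 libraries lay above both 2xDbp1 libraries, and above both Dbp1 libraries. MET2, MET6 and MET17 passed with the 4 libraries alone (adjusted p = 0.0356 for each, limma). MET6 and MET17 also passed with the replicate number as a block, although the numbers are not said to pair the libraries. STR3, cystathionine beta-lyase, had 3.99 and 4.39 RPKM in 2xDbp1, 5.48 and 8.19 RPKM in Dbp1 and 9.02 and 16.2 RPKM in Ded1 (-1.34). MHT1, a homocysteine methyltransferase, had 15.2 and 12.5 RPKM in 2xDbp1, against 22.1 and 21.6 RPKM in Ded1 (-0.63), and CYS3, of cysteine synthesis, had 110.5 and 101 RPKM in 2xDbp1, against 158 and 129.9 RPKM in Ded1 (-0.44). SAM1, an S-adenosylmethionine synthetase, had 297 and 271 RPKM in 2xDbp1, against 376 and 405 RPKM in Ded1 (-0.46) and shares close sequence with SAM2, so that reads could be split between them.

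Uptake and regulatory genes of the pathway lay lower as well. MMP1, an S-methylmethionine permease, had 6.31 and 5.17 RPKM in 2xDbp1, 4.14 and 5.57 RPKM in Dbp1 and 11.2 and 11.5 RPKM in Ded1 (limma, log2 fold change -0.88, SE 0.20, adjusted p = 0.215). MET32, a DNA-binding partner of Met4, had 18.9 and 18.3 RPKM in 2xDbp1, 17.1 and 17.8 RPKM in Dbp1 and 24.9 and 23.7 RPKM in Ded1 (-0.37), and CBF1, another partner, had 44.9 and 39.7 RPKM in 2xDbp1, against 52.9 and 54.5 RPKM in Ded1 (-0.34). MUP1, the high-affinity methionine permease, stood at -0.24. AGP3, an amino acid permease gene, had 7.45 and 4.61 RPKM in 2xDbp1, against 4.62 and 3.93 RPKM in Ded1 (+0.39), and MET4 itself stood at -0.00, both with overlapping libraries. Of 11 members tested, 7 were lower and 0 higher with no overlap (0% higher and 63.6% lower, against 30.9% and 21.4% over all genes). Their median was -0.16. By limma 0 passed the threshold, and 3 were lower at an unadjusted p under 0.05 (27.3%, against 4.87% over all genes). Without 1 library at a time, the sulfate assimilation median ranged from -0.52 to -0.33 and that of methionine and homocysteine synthesis from -0.30 to -0.15 (-0.30 without 2xDbp1 replicate 2 and -0.30 without Ded1 replicate 1). For uptake and regulators the median ranged from -0.32 to -0.14 (-0.25 without 2xDbp1 replicate 2 and -0.32 without Ded1 replicate 1).

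**Figure D3:**
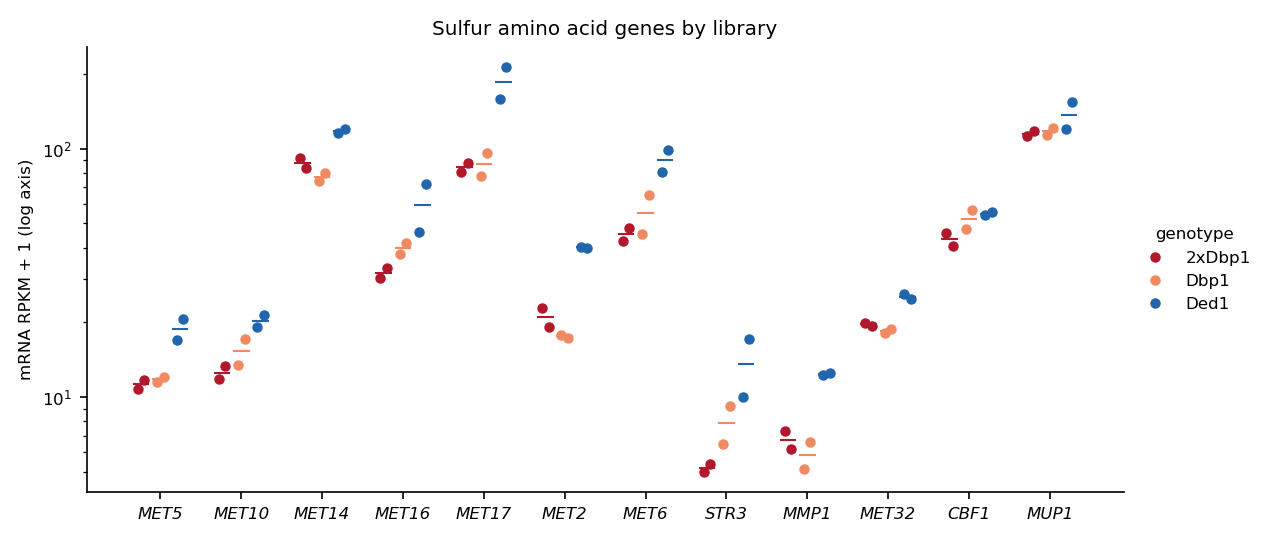
Each point is 1 mRNA library (RPKM + 1, log axis) and each bar a genotype mean, for the 4 members with the lowest p in each of 3 lists: sulfate assimilation (MET5 to MET16), methionine and homocysteine synthesis (MET17 to STR3) and uptake and regulators (MMP1 to MUP1). Both 2xDbp1 libraries lie below both Ded1 libraries for all 12 genes, which the choice by lowest p favours.

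General stress genes, which Msn2 and Msn4 switch on, lay higher in 2xDbp1. Of 37 members tested, 26 were higher and 0 lower with no overlap (70.3% and 0%, against 30.9% and 21.4% over all genes). At an unadjusted p under 0.05, 21 were higher (56.8%, against 10.2% over all genes). The median was +0.47, and 0 passed the threshold by limma, although RTC3 did with the replicate number as a block. RTC3 had 25.4 and 20.3 RPKM in 2xDbp1, 41.1 and 35.1 RPKM in Dbp1 and 9.51 and 8.95 RPKM in Ded1 (limma, log2 fold change +1.21, SE 0.15, adjusted p = 0.051). DCS2, a regulator of mRNA decapping, had 14.6 and 14.6 RPKM in 2xDbp1, 32.3 and 21.9 RPKM in Dbp1 and 5.37 and 6.58 RPKM in Ded1 (+1.17), and PGM2, phosphoglucomutase, had 19.5 and 17.3 RPKM in 2xDbp1, 31.4 and 27.6 RPKM in Dbp1 and 10.6 and 10.3 RPKM in Ded1 (+0.76). For these 3 genes the order was the same, Dbp1 highest and Ded1 lowest, with no overlap between genotypes. HSP12, for a small heat shock protein that binds membranes, had 105 and 84.9 RPKM in 2xDbp1, 674 and 344 RPKM in Dbp1 and 17.5 and 64.5 RPKM in Ded1 (+1.45, SE 0.55). The Ded1 libraries differed from each other more than the 2xDbp1 libraries did, and both lay below 2xDbp1. In bulk samples, more cells in a stress state and more RNA per cell cannot be told apart.

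The level of the stress list differed between libraries of a genotype by less than between 2xDbp1 and Ded1. Its mean log2(RPKM + 1) was 4.88 and 5.01 in 2xDbp1, 5.82 and 5.39 in Dbp1 and 4.33 and 4.45 in Ded1. Dbp1 replicate 1 was the highest, and the 2xDbp1 libraries lay between Dbp1 and Ded1 with no overlap. Leaving out 1 library at a time gave medians of +0.42 to +0.61.

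Storage carbohydrate genes held both directions. Of 18 trehalose and glycogen genes tested, 8 were higher and 1 lower with no overlap (44.4% higher and 5.56% lower, against 30.9% and 21.4% over all genes). Their median was +0.12, and 0 passed the threshold by limma. At an unadjusted p under 0.05, 5 were higher (27.8%, against 10.2% over all genes). GSY2, the main glycogen synthase gene, had 23.3 and 28.9 RPKM in 2xDbp1, 42.2 and 37.4 RPKM in Dbp1 and 15 and 16.3 RPKM in Ded1 (limma, log2 fold change +0.69, SE 0.14, adjusted p = 0.178). GPH1, glycogen phosphorylase, had 7.6 and 7.79 RPKM in 2xDbp1, 23 and 13.1 RPKM in Dbp1 and 4.41 and 3.33 RPKM in Ded1 (+0.85), so genes of glycogen synthesis and breakdown stood on the same side. PGM1, the other phosphoglucomutase, had 62.5 and 68.7 RPKM in 2xDbp1, against 74.8 and 75.1 RPKM in Ded1 (-0.19), opposite to PGM2. The trehalose gene TSL1 had overlapping libraries (+0.32). GLG2, which primes glycogen, stood at +0.43. Without 1 library at a time, the list's median ranged from +0.09 to +0.22 (+0.18 without 2xDbp1 replicate 1 and +0.22 without Ded1 replicate 1).

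Nuclear respiratory chain and ATP synthase genes lay slightly higher in 2xDbp1. Of 39 members tested, 33 were higher and 0 lower with no overlap (84.6% and 0%, against 30.9% and 21.4% over all genes), with a median of +0.24. None passed the threshold by limma, and 11 were higher at an unadjusted p under 0.05 (28.2%, against 10.2% over all genes). ATP4 and ATP5, ATP synthase stalk subunit genes, had 1389 and 1379 RPKM in 2xDbp1, against 978 and 1086 RPKM in Ded1, and 955 and 969.5 RPKM in 2xDbp1, against 657 and 810.4 RPKM in Ded1, at +0.43 and +0.40. CYT1, cytochrome c1, had 406 and 437 RPKM in 2xDbp1, against 324 and 351 RPKM in Ded1 (+0.32), and CYC7, the minor cytochrome c isoform, had 128 and 207 RPKM in 2xDbp1, against 69.3 and 127 RPKM in Ded1 (+0.79). The list mean was 9.62 and 9.68 in 2xDbp1, 9.99 and 9.62 in Dbp1 and 9.28 and 9.46 in Ded1 on the log2(RPKM + 1) scale. The Ded1 libraries were the lowest, and the Dbp1 libraries differed from each other by more than the 2xDbp1 and Ded1 means did. The median was +0.16 to +0.35 without 1 library at a time, lowest without Ded1 replicate 1.

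These genes are short, with a median gene length of 462 nt against 1236 nt over all genes tested. Across 5110 genes with a length, the log2 fold change had a Spearman correlation of -0.205 with length, given as a description since genes share their libraries. Its median was +0.07 over genes of up to 765 nt and -0.04 over genes of 1908 nt or longer. The difference between the Ded1 replicates had a correlation of 0.322 with length, and that between the 2xDbp1 replicates one of -0.038. With a length trend removed from each library, an alternative added after the data were seen, the respiratory list's median was +0.18 and that of general stress +0.42. Cytosolic ribosomal protein genes, which are short as well (median 767 nt, introns included), had a median of -0.01, and of -0.09 with the trend removed. Some lists that lay lower hold longer genes, with median lengths of 1539 nt (ribosome biogenesis), 1627.5 nt (Hsf1-dependent chaperones) and 1776 nt (DEAD-box helicases). Others do not, such as the proteasome list (894 nt). Among genes of 1908 nt or longer, 29.9% were lower and 18.4% higher with no overlap. Medians of the lower lists with the trend removed are not given here.

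Genes of the tricarboxylic acid cycle were 10 higher and 1 lower with no overlap among 18 tested (55.6% higher and 5.56% lower, against 30.9% and 21.4% over all genes). Their median was +0.19, and 0 passed the threshold by limma. At an unadjusted p under 0.05, 3 were higher and 1 lower (16.7% and 5.56%, against 10.2% and 4.87% over all genes). CIT1, mitochondrial citrate synthase, had 506 and 539 RPKM in 2xDbp1, 822 and 421 RPKM in Dbp1 and 358 and 291 RPKM in Ded1 (limma, log2 fold change +0.69, SE 0.28, adjusted p = 0.313), and CIT2, its peroxisomal form, had 750.2 and 1029 RPKM in 2xDbp1, 1415 and 829 RPKM in Dbp1 and 539 and 596 RPKM in Ded1 (+0.63). MDH1, mitochondrial malate dehydrogenase, had 445 and 452 RPKM in 2xDbp1, against 365 and 364 RPKM in Ded1 (+0.30). PYC2, a pyruvate carboxylase gene that feeds the cycle, had 47.8 and 54 RPKM in 2xDbp1, against 64.6 and 72.4 RPKM in Ded1 (-0.42) and was the member lower with no overlap.

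Glycolysis held genes on both sides. TDH1, given above, and ENO1, an enolase gene with 578 and 706 RPKM in 2xDbp1, against 469 and 379 RPKM in Ded1 (+0.60), lay higher. The phosphofructokinase subunit genes PFK1 and PFK2 lay lower, PFK2 with 103 and 99.5 RPKM in 2xDbp1, against 143 and 123 RPKM in Ded1 (limma, log2 fold change -0.38, SE 0.11, adjusted p = 0.252) and PFK1 at -0.31. PDC1, the main pyruvate decarboxylase gene, had 1838 and 1743 RPKM in 2xDbp1, against 2454 and 1989.9 RPKM in Ded1 (-0.30), and GLK1, glucokinase, had 32.2 and 33.6 RPKM in 2xDbp1, against 22.9 and 19.6 RPKM in Ded1 (+0.61). Over 21 members, 7 were higher and 5 lower with no overlap, near the shares of all genes (33.3% higher and 23.8% lower, against 30.9% and 21.4% over all genes). The median was +0.05 (+0.11 without 2xDbp1 replicate 1, -0.03 without 2xDbp1 replicate 2, +0.08 without Ded1 replicate 1 and -0.01 without Ded1 replicate 2). By limma 0 passed, with 6 higher and 3 lower at an unadjusted p under 0.05 (28.6% and 14.3%, against 10.2% and 4.87% over all genes). Enolase and glyceraldehyde-3-phosphate dehydrogenase isozymes are close in sequence, and reads could be split between them. Among 8 hexose transporter and sensor genes tested, MTH1, a repressor of hexose transporter genes, had 15.7 and 15.8 RPKM in 2xDbp1, against 11.5 and 10.9 RPKM in Ded1 (+0.46), HXT4 stood at +0.33, and HXT2, a high-affinity transporter, had 461 and 435 RPKM in 2xDbp1, against 518 and 471 RPKM in Ded1 (-0.14). In that list 4 were higher and 1 lower with no overlap (50% higher and 12.5% lower, against 30.9% and 21.4% over all genes). By limma 0 passed, with 2 higher at an unadjusted p under 0.05 (25%, against 10.2% over all genes). Its median of +0.14 was +0.06 without 2xDbp1 replicate 2, +0.06 without Ded1 replicate 1 and +0.31 without Ded1 replicate 2.

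**Figure D4:**
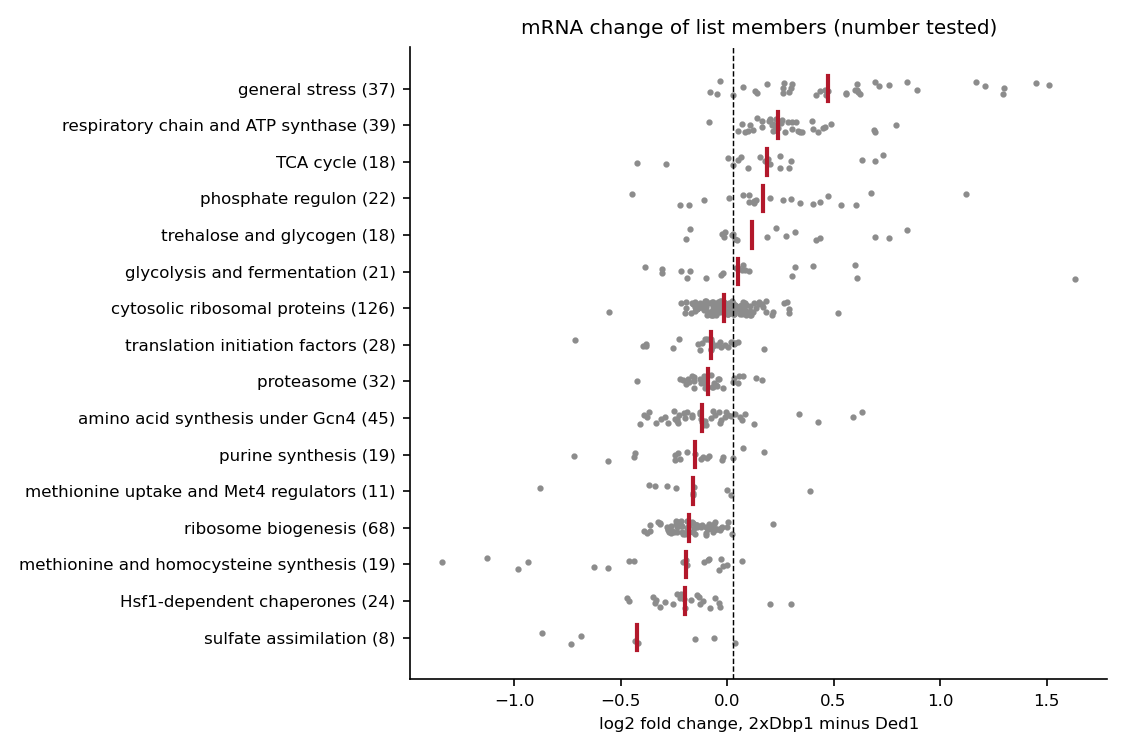
Each grey point is 1 list member tested, placed by its mRNA log2 fold change, 2xDbp1 minus Ded1; red bars are list medians and the dashed line is the median of all genes (+0.03). General stress (+0.47) and respiratory (+0.24) lists lie to the right and sulfate assimilation (-0.42) and Hsf1-dependent chaperones (-0.20) to the left.

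Genes that build the translation machinery lay slightly lower in 2xDbp1 than in Ded1, apart from the ribosomal proteins themselves. This was not particular to 2xDbp1. For ribosome biogenesis the median of Dbp1 minus Ded1 was -0.25. The list mean of log2(RPKM + 1) was 7.34 and 7.20 in 2xDbp1, 7.17 and 7.19 in Dbp1 and 7.44 and 7.43 in Ded1. Of 68 ribosome biogenesis genes, 48 were lower and 1 higher with no overlap (70.6% and 1.47%, against 21.4% and 30.9% over all genes), with a median of -0.18. None passed by limma, and 17 were lower at an unadjusted p under 0.05 (25%, against 4.87% over all genes). NOP1, the methyltransferase of small nucleolar ribonucleoproteins, had 414 and 413 RPKM in 2xDbp1, against 499 and 491 RPKM in Ded1 (limma, log2 fold change -0.26, SE 0.0866, adjusted p = 0.286). TSR1, a small subunit assembly factor, had 72.2 and 66.6 RPKM in 2xDbp1, against 96.3 and 84.7 RPKM in Ded1 (-0.38), RIO2, a kinase of the same particle, had 151 and 131 RPKM in 2xDbp1, against 178 and 184 RPKM in Ded1 (-0.36), and RRP1 stood at -0.39. Without 2xDbp1 replicate 2 the median was -0.09, and over the libraries left out in turn it ranged from -0.24 to -0.09.

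Ribosomal protein genes were evenly divided. Of 126 tested, 33 were higher and 33 lower with no overlap (26.2% each, against 30.9% higher and 21.4% lower over all genes), and the median of -0.01 changed sign when 1 library was left out (-0.04 to +0.01). RPL39 had 19388 and 20044 RPKM in 2xDbp1, against 15518 and 16920.3 RPKM in Ded1 (+0.28), RPS11B had 1576 and 1592 RPKM in 2xDbp1, against 1292 and 1294 RPKM in Ded1 (+0.29), and RPL41B had 525 and 629 RPKM in 2xDbp1, against 401 and 399 RPKM in Ded1 (+0.52). RPL33A had 7938 and 7764 RPKM in 2xDbp1, against 9201 and 9076 RPKM in Ded1 (-0.22). RPS11B, RPL41B and RPL33A have near-identical paralogs, and the split of reads between copies is uncertain. At an unadjusted p under 0.05, 8 were higher and 1 lower (6.35% and 0.794%, against 10.2% and 4.87% over all genes), and 0 passed the threshold by limma.

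Helicases related to DED1 and DBP1 had small values. Of the 26 DEAD-box genes, DBP1 rose, DED1 fell and 24 did not pass, and with those genes counted 16 were lower and 2 higher with no overlap (7.69% higher and 61.5% lower, against 30.9% and 21.4% over all genes; median -0.12). DBP8, of small subunit assembly, had 88.2 and 89.97 RPKM in 2xDbp1, 73.9 and 81.3 RPKM in Dbp1 and 109 and 112 RPKM in Ded1 (limma, log2 fold change -0.31, SE 0.092, adjusted p = 0.27). DBP2, which acts on transcripts in the nucleus, had 236 and 223 RPKM in 2xDbp1, 184 and 178 RPKM in Dbp1 and 274 and 264 RPKM in Ded1 (-0.23), and HAS1, of ribosome assembly, had 172 and 169 RPKM in 2xDbp1, 151 and 165 RPKM in Dbp1 and 195 and 212 RPKM in Ded1 (-0.25). DHH1, the decapping activator, had 41.8 and 45 RPKM in 2xDbp1, 55.9 and 63.4 RPKM in Dbp1 and 51 and 49.3 RPKM in Ded1 (-0.21). For DBP8, DBP2 and HAS1 both Dbp1 libraries lay under both 2xDbp1 libraries, while for DHH1 both Dbp1 libraries were the highest. TIF1 and TIF2, which encode the initiation helicase eIF4A in identical copies, stood at +0.04 and +0.00, and reads cannot be assigned between them.

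Of 28 translation initiation factor genes, 12 were lower and 1 higher with no overlap (3.57% higher and 42.9% lower, against 30.9% and 21.4% over all genes). Their median was -0.07, and 0 passed the threshold by limma. The median of Dbp1 minus Ded1 for the same genes was -0.14. At an unadjusted p under 0.05, 5 were lower (17.9%, against 4.87% over all genes). EAP1, which binds eIF4E and represses cap-dependent translation, had 9.12 and 10.8 RPKM in 2xDbp1, 12.8 and 12.8 RPKM in Dbp1 and 17.9 and 15.9 RPKM in Ded1 (limma, log2 fold change -0.71, SE 0.14, adjusted p = 0.178). PAB1, the poly(A)-binding protein, had 175 and 157 RPKM in 2xDbp1, against 244 and 192 RPKM in Ded1 (-0.38). RPG1, the eIF3a subunit, had 96.2 and 80.7 RPKM in 2xDbp1, against 129.8 and 104 RPKM in Ded1 (-0.40), and FUN12, eIF5B, had 93.5 and 78.3 RPKM in 2xDbp1, against 122 and 102 RPKM in Ded1 (-0.38). For PAB1, RPG1 and FUN12 both Ded1 libraries were above 2xDbp1, and Ded1 replicate 1 was above Ded1 replicate 2. TIF4631, the eIF4G scaffold to which Ded1 binds, stood at -0.22. The list's median was -0.11 without 2xDbp1 replicate 1 and -0.04 without 2xDbp1 replicate 2.

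Hsf1-dependent chaperone genes lay lower, opposite to the general stress list. Of 24 tested, 13 were lower and 1 higher with no overlap (54.2% and 4.17%, against 21.4% and 30.9% over all genes). Their median was -0.20, and 0 passed the threshold by limma. At an unadjusted p under 0.05, 4 were lower (16.7%, against 4.87% over all genes). BTN2, a sorting factor for misfolded protein, had 33.4 and 30.8 RPKM in 2xDbp1, 42.1 and 56 RPKM in Dbp1 and 45.7 and 43.9 RPKM in Ded1 (limma, log2 fold change -0.47, SE 0.14, adjusted p = 0.27). HSC82, an Hsp90 gene with a close paralog, had 1346 and 1257 RPKM in 2xDbp1, 1437 and 1871 RPKM in Dbp1 and 1752 and 1542 RPKM in Ded1 (-0.34), and STI1, a cochaperone of Hsp90, had 99.8 and 87.1 RPKM in 2xDbp1, 96.8 and 141 RPKM in Dbp1 and 143 and 116 RPKM in Ded1 (-0.46). For all 3 both 2xDbp1 libraries lay below both Ded1 libraries, and Dbp1 replicate 2 was the highest for BTN2 and HSC82. SSE1, an Hsp70 exchange factor, stood at -0.32. HSP42, which is also on the general stress list, was the member higher with no overlap, at +0.30. The list mean was 7.74 and 7.58 in 2xDbp1, 7.81 and 8.14 in Dbp1 and 7.89 and 7.79 in Ded1 on the log2(RPKM + 1) scale, and the Dbp1 libraries spanned more than the difference between 2xDbp1 and Ded1. The median was -0.31 without 2xDbp1 replicate 1 and -0.11 without 2xDbp1 replicate 2. Proteasome genes were 16 lower and 3 higher with no overlap among 32 (9.38% higher and 50% lower, against 30.9% and 21.4% over all genes). Their median was -0.09, with RPN1 at -0.42. By limma 0 passed the threshold, and 1 was lower at an unadjusted p under 0.05 (3.1%, against 4.87% over all genes). The proteasome median was -0.04 without 2xDbp1 replicate 2.

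Amino acid genes stood further apart between replicates than between genotypes. Among 45 genes of amino acid synthesis under the activator Gcn4, 4 were higher and 7 lower with no overlap (8.89% higher and 15.6% lower, against 30.9% and 21.4% over all genes). By limma 0 passed, with 1 higher and 3 lower at an unadjusted p under 0.05 (2.22% and 6.67%, against 10.2% and 4.87% over all genes). The list mean was 7.67 and 8.02 in 2xDbp1, 8.16 and 8.06 in Dbp1 and 7.71 and 8.15 in Ded1, so replicates of 2xDbp1 and of Ded1 differed from each other by more than the genotypes. GCN4 itself had 1807 and 2037 RPKM in 2xDbp1, 2224 and 1927 RPKM in Dbp1 and 1339 and 1519 RPKM in Ded1 (limma, log2 fold change +0.43, SE 0.11, adjusted p = 0.238), higher in 2xDbp1 than in Ded1 with no overlap, while ILV2, of branched-chain synthesis, had 157 and 177 RPKM in 2xDbp1, against 195 and 240.1 RPKM in Ded1 (-0.38). The list's median of -0.12 was +0.01 without 2xDbp1 replicate 1, -0.33 without 2xDbp1 replicate 2, -0.31 without Ded1 replicate 1 and +0.07 without Ded1 replicate 2. Of 19 purine genes 7 were lower and 0 higher with no overlap (0% higher and 36.8% lower, against 30.9% and 21.4% over all genes). Their median was -0.15, and 0 passed the threshold by limma. At an unadjusted p under 0.05, 3 were lower (15.8%, against 4.87% over all genes). ADE3, of one-carbon metabolism, had 38.4 and 43.6 RPKM in 2xDbp1, against 57.3 and 54.5 RPKM in Ded1 (-0.44), ADE6 stood at -0.43, and SHM2, serine hydroxymethyltransferase, had 105 and 103 RPKM in 2xDbp1, 77.7 and 184 RPKM in Dbp1 and 134 and 221 RPKM in Ded1 (-0.72), with wide gaps between the Dbp1 and between the Ded1 replicates. The purine median was -0.28 without Ded1 replicate 1 and -0.07 without Ded1 replicate 2.

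**Figure D5:**
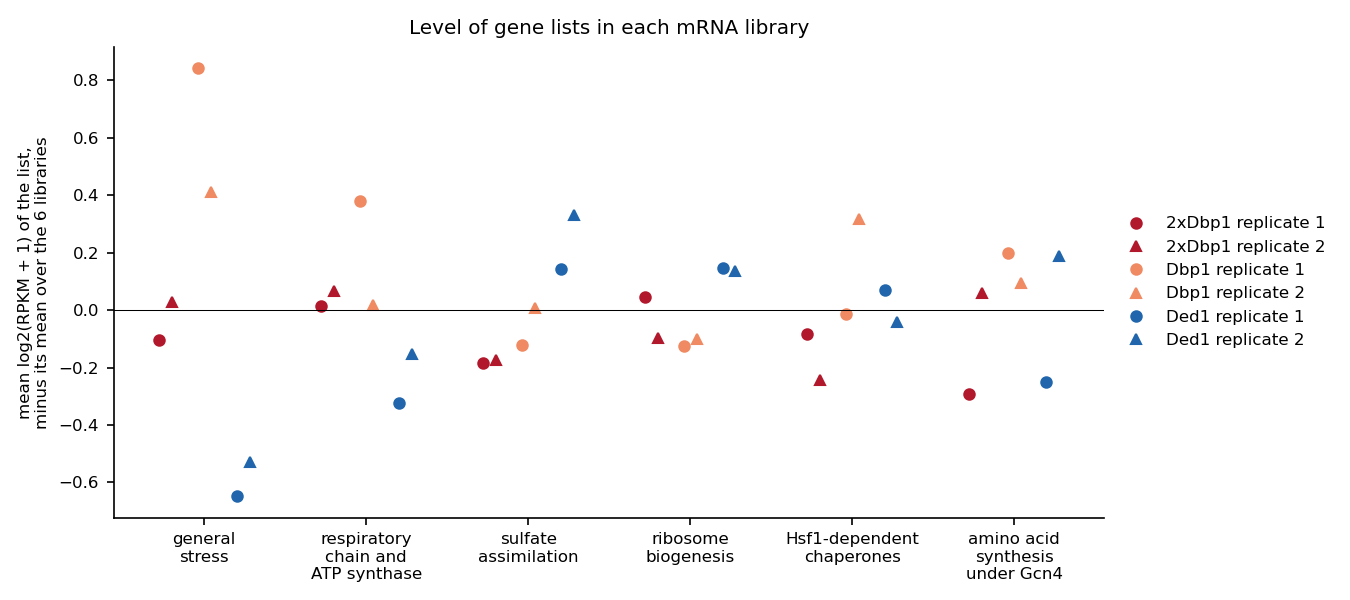
Each point is the mean log2(RPKM + 1) of a gene list in 1 mRNA library, minus the list's mean over the 6 libraries; circles are replicate 1 and triangles replicate 2. The 2xDbp1 libraries lie between Dbp1 and Ded1 for general stress, below Ded1 for sulfate assimilation and ribosome biogenesis, and both 2xDbp1 and Ded1 split by replicate for amino acid synthesis.

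The phosphate regulon held members on both sides. Of 22 tested, 12 were higher and 3 lower with no overlap (54.5% higher and 13.6% lower, against 30.9% and 21.4% over all genes). Their median was +0.17, and 0 passed the threshold by limma. At an unadjusted p under 0.05, 3 were higher and 2 lower (13.6% and 9.09%, against 10.2% and 4.87% over all genes). VTC1, of the polyphosphate-making complex, had 403 and 334 RPKM in 2xDbp1, 283 and 210.1 RPKM in Dbp1 and 268 and 274 RPKM in Ded1 (limma, log2 fold change +0.44, SE 0.16, adjusted p = 0.295), and PHO5, an acid phosphatase, had 10.9 and 9.81 RPKM in 2xDbp1, 9.92 and 5.5 RPKM in Dbp1 and 6.44 and 6.48 RPKM in Ded1 (+0.60). SPL2, which acts on low-affinity phosphate transport, had 16.2 and 14.4 RPKM in 2xDbp1, 7.75 and 2.31 RPKM in Dbp1 and 11.9 and 3.34 RPKM in Ded1 (+1.12), with the Ded1 libraries far apart. PHO4, the activator of the regulon, had 35.9 and 35.6 RPKM in 2xDbp1, 41.9 and 38.4 RPKM in Dbp1 and 51.7 and 46.4 RPKM in Ded1 (-0.45), on the other side from these members. PHM8, a phosphatase gene that is also on the stress list, had 20.2 and 21.7 RPKM in 2xDbp1, 40.7 and 45.4 RPKM in Dbp1 and 12 and 18.2 RPKM in Ded1 (+0.47). The list's median was +0.11 without Ded1 replicate 2.

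Cell wall, iron, sterol, cyclin and histone genes gave no call. Cell wall and mannoprotein genes were 7 higher and 6 lower with no overlap among 28, near the shares of all genes (25% higher and 21.4% lower, against 30.9% and 21.4% over all genes; median +0.05, +0.13 without 2xDbp1 replicate 1, +0.01 without 2xDbp1 replicate 2 and +0.03 without Ded1 replicate 2). HSP150, a secreted wall mannoprotein, had 283 and 269 RPKM in 2xDbp1, 331 and 318 RPKM in Dbp1 and 421 and 347 RPKM in Ded1 (limma, log2 fold change -0.47, SE 0.11, adjusted p = 0.215), and BGL2, a wall endoglucanase, had 1255 and 1419.8 RPKM in 2xDbp1, against 1054 and 1102 RPKM in Ded1 (+0.31). Among 22 iron regulon genes, 7 were higher and 0 lower with no overlap (31.8% higher and 0% lower, against 30.9% and 21.4% over all genes), so that the share higher was near that of all genes. The lowest p was that of SMF3, a vacuolar iron transporter, which had 83.1 and 106 RPKM in 2xDbp1, against 74.5 and 58.7 RPKM in Ded1 (+0.50). The iron median of +0.18 was +0.31 without 2xDbp1 replicate 1 and -0.01 without 2xDbp1 replicate 2. Ergosterol genes had a median of -0.06 over 25, cyclins and cell cycle regulators one of +0.01 over 15, and histone genes one of -0.18 over 10. The ergosterol and cyclin medians changed sign when 1 library was left out (-0.14 to +0.04 and -0.04 to +0.07), and the histone median was -0.33 without Ded1 replicate 1 and -0.02 without Ded1 replicate 2. The histone gene HTA1 had 1985 and 1907 RPKM in 2xDbp1, 1666 and 2919 RPKM in Dbp1 and 2344 and 3150.3 RPKM in Ded1 (-0.48). At an unadjusted p under 0.05 there were 2 cell wall genes higher and 3 lower (7.14% and 10.7%, against 10.2% and 4.87% over all genes). There was 1 iron gene higher (4.55%) and 0 in the last 3 lists, and 0 passed the threshold by limma in any of the 5.

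Markers of mating type and of meiosis were measured in every library. Summed over 4 alpha mating type genes, the level was 5.36 to 8.32 RPKM in 2xDbp1 and 4.81 to 5.55 RPKM in Ded1, and over 7 a mating type genes it was 17.1 to 22.9 RPKM in 2xDbp1 and 17.2 to 27.5 RPKM in Ded1. The pheromone genes MF(ALPHA)2, MFA1 and MFA2 were each listed at 0 in some of the libraries. Haploid genes summed to 26.1 to 28.6 RPKM in 2xDbp1 and 22.0 to 22.8 RPKM in Ded1 over 7 members. Over 14 meiotic genes the sum was 62.3 to 76.7 RPKM in 2xDbp1 and 53.0 to 69.0 RPKM in Ded1. SPS4, a sporulation gene, had 33 and 18 RPKM in 2xDbp1, 19.5 and 11.6 RPKM in Dbp1 and 21.7 and 11.2 RPKM in Ded1 (+0.61), the highest single value of these lists, with overlapping libraries. STE4, a subunit gene of the pheromone G protein, had 14.6 and 14.2 RPKM in 2xDbp1, against 10.4 and 11.4 RPKM in Ded1 (+0.38), and every other gene of these 4 lists was under 5 RPKM or had an unadjusted p over 0.05. The part of other cell states in the stress and respiratory values was not tested.

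The median log2 fold change per chromosome ran from -0.04 on chromosome I, over 67 genes, to +0.06 on chromosome X, over 303. Chromosomes IV, XV and XVI, which carry TRP1, DED1 and DBP1, had medians of +0.04, +0.03 and +0.01.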

How the data were processed

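The authors deposited 1 table with an RPKM value per gene and library, with no unit named in the labels. The unit was read from the values: among genes with up to 200 reads, RPKM times the gene length minus 60 nt was a whole multiple of 1 step per library, within 0.02 reads, for 83.8% to 85.5% of values. The steps give 6000000 to 8500000 reads per mRNA library, and reads per gene quoted in the text come from them. Depth is thus inferred. CASAVA, bcl2fastq 2.17 and Bowtie2 are named in the submitters' processing notes, without their roles. The genome build and how reads were counted are not stated there. mRNA fragments were selected at 50 nt, per the labels' protocols.

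Of 6159 gene IDs, 5637 matched the R64 RefSeq gene table, used for names, gene lengths (introns included) and neighbours. log2(RPKM + 1) of the 6 mRNA libraries entered a model with limma 3.58.1 (R 4.3.3, empirical Bayes with a trend) for 5198 genes with a mean of at least 5 RPKM, contrast 2xDbp1 minus Ded1, with Benjamini-Hochberg adjustment over all of them and a threshold of 0.05, 2-sided. The fit was tested on simulated data with the same spread for all genes and genotypes. That test does not cover spread that differs between genes or genotypes, as between the Dbp1 libraries and the others. Fold changes on this scale understate the change of low genes. Footprint libraries were not used. Lists were described by counts and medians, with no set test. Members named are DED1, DBP1, every gene past the threshold and its nearest neighbours, the genes past it with the 2 compared genotypes alone (up to 12 in each direction), the 8 with the lowest p in each direction with no overlap and at least 10 RPKM, the strain markers and up to 4 members with the lowest p of each list; those not named in the text are counted with their list. TAT2, COX17, PRM3, YOR292C, MET3, MET22, MHT1, CYS3, SAM1, HSP12, PGM1, TSL1, CYT1, CYC7, PFK1, PDC1, NOP1, RPL33A, HAS1, DHH1, TIF1, TIF2, TIF4631, HSP42, SHM2, PHO5, SPL2, AGP3, MET4, MIN4 and YPL152W-A were named after their values were seen. The comparison and the lists were chosen with earlier results of these data known. Alternatives were other pseudocounts, filters, scalings, library sets, a replicate term and a length trend. Python 3.11.15, pandas 2.3.3, numpy 2.4.6 and matplotlib 3.10.9 were used.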

Additional observations from a re-analysis of the deposited data

How the results depend on the processing

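Of the 4 calls between 2xDbp1 and Ded1, DBP1, DED1 and TRP1 passed under all 14 alternatives run, and MBB1 under all but the 4 that leave out a library of 2xDbp1 or Ded1. The count was 26 (20 higher and 6 lower) with the 2 compared genotypes alone, 10 (7 and 3) with a minimum mean of 20 RPKM and 8 (5 and 3) with the libraries rescaled. It was 3 to 27 without 1 library at a time, 27 without either Dbp1 library and 3 without any of the other 4. It was 4 or 5 with other pseudocounts, with no filter and with the length trend removed. All 4 calls were kept in each fit with 26 or 27. The cause of the higher counts was not tested. Fewer genes entered the fit with the higher minimum. With the replicate number as a block the count was 7 (3 and 4), adding RTC3, MET6 and MET17. The numbers are not said to pair the libraries: the difference between replicates 1 and 2 had a correlation of 0.198 between 2xDbp1 and Ded1, 0.175 between Dbp1 and Ded1 and -0.072 between 2xDbp1 and Dbp1. Of 121 named genes, 4 that were not called (HIS4, GPA1, ARG4 and STE6) changed sign under some alternative, and 20 were called only under an alternative. The fits without a library of 2xDbp1 or Ded1 assume that the lone sample varies like the others. Genes near 5 RPKM rest on 28.2 to 39.9 reads per kilobase, which limits what can be called among them.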

Other observations

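The short open reading frames YPL152W-A and MIN4 had few reads and stood low in 2xDbp1. They were named after their values were seen and are given with no test. Short genes as a set did not lie lower. Among genes of 78 to 765 nt, 35.3% were higher and 14.8% lower with no overlap. YPL152W-A had 3.67 RPKM in 2xDbp1 replicate 2 and was listed at 0 in 2xDbp1 replicate 1, against 10.1 and 18.1 RPKM in Ded1, where these values are 3 and 6 reads. MIN4 had 5.62 RPKM in 2xDbp1 replicate 2 and was listed at 0 in 2xDbp1 replicate 1 and in Dbp1 replicate 1, against 12.9 and 16.2 RPKM in Ded1, from 5 and 7 reads. The Ded1 values carry much of the mean by which both passed the minimum of 5 RPKM. FIP1, of the polyadenylation machinery, had 25.4 and 24.2 RPKM in 2xDbp1, 29.1 and 27.2 RPKM in Dbp1 and 37.6 and 34.3 RPKM in Ded1 (limma, log2 fold change -0.52, SE 0.10, adjusted p = 0.178), with both Ded1 libraries highest.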
